A study of Mus musculus with 5 samples.

Results

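The regions described here are the 1-Mb windows of the mouse autosomes in which RNA polymerase II (RNA Pol II) occupied the most sequence. A window qualified when at least 30 of its 500-bp bins each held at least 10 RNA Pol II reads at a fold of at least 3 over whole cell extract (WCE). Of 2416 windows, laid end to end from position 3 Mb of chromosomes 1 to 19, 292 met this rule and are called dense. Another 1529 windows held 1 to 29 such bins and are called sparser, and 595 held none. The windows were chosen by their RNA Pol II counts and folds, so every RNA Pol II value below is a description and supports nothing. With WCE replicate 1 as the only background, 157 windows met the rule.

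The chromatin was from secondary mouse embryonic fibroblasts labelled KSO, in which doxycycline can induce Klf4, Sox2 and Oct4. As the labels describe, induced pluripotent cells went into BDF2 blastocysts, the chimeras were dissected at 13.5 dpc for their fibroblasts, and puromycin (2 µg/ml, 48 hours) selected those derived from the injected cells. The 5 libraries were 1 each for RNA Pol II (antibody 8WG16), the transcription factor E2F4 and the histone mark H3K27me3, trimethylation of lysine 27, with 2 of WCE without antibody. No label states a doxycycline treatment, and all 5 libraries share the cells, so the comparisons are between places in 1 genome and not between conditions.

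RNA Pol II transcribes protein-coding genes and gathers at their promoters, and genes are unevenly spread, so that gene-rich stretches of a chromosome hold many promoters close together. E2F4, one of the E2F proteins, binds promoters of cell cycle genes and is best known as a repressor, acting with the pocket proteins p107 and p130 in resting cells. H3K27me3 is placed by Polycomb repressive complex 2 over silent genes, often developmental regulators, and forms broad domains. The comparisons ask how RNA Pol II sites are spaced where they are crowded, how often E2F4 lies on them, and whether the sequence between them carries H3K27me3.

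After removal of repeated positions, the libraries held 3111606 RNA Pol II, 1971874 E2F4 and 9483163 H3K27me3 reads on the autosomes, with 417799 in WCE replicate 1 and 11226593 in WCE replicate 2. At these depths a region with no read may still hold up to 9.64e-05% of a library's reads for RNA Pol II, 0.000152% for E2F4 and 3.16e-05% for H3K27me3, taking 3 counts as the limit of a count of 0. The background libraries did not behave alike. WCE replicate 2 was 1.73 times as dense in dense as in sparser windows, and 4.63 times as dense as in windows without a qualifying bin, whereas WCE replicate 1 was 1.10 times as dense in both comparisons. Per the file headers, WCE replicate 1 was sequenced in 1 run with RNA Pol II and E2F4, and WCE replicate 2 in another with H3K27me3. No antibody has a second library, so there is no replicate error. All intervals are 95% intervals that cover the counting of reads or sites only, and reads amplified without molecular identifiers are not independent molecules.

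Dense windows made up 12.1% of the sequence in the grid and held 51.0% of the qualifying RNA Pol II bins, 16786 of 32934. Over the whole grid 0.685% of 500-bp bins qualified for RNA Pol II, and this share is given for scale only, since the rule used it. Of all autosomal reads, dense windows took 41.2% for RNA Pol II, 23.6% for E2F4 and 24.3% for H3K27me3, with 13.2% and 22.5% for the first and second WCE library. The rule itself favours a high share for RNA Pol II, and the shares of the other 4 libraries were all below 25%.

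The number of qualifying bins ran from 30 to 255 with a median of 48. There were 156 windows with 30 to 49 bins, 113 with 50 to 99 and 23 with at least 100. No break in the distribution set the dense windows off. The 63 windows just outside the rule, with 27 to 29 bins, had a median of 12 sites and a median RNA Pol II ratio to WCE of 1.23 over the whole window. The 28 just inside it, with 30 to 32 bins, had a median of 14 sites and a ratio of 1.43.

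**Figure D1:**
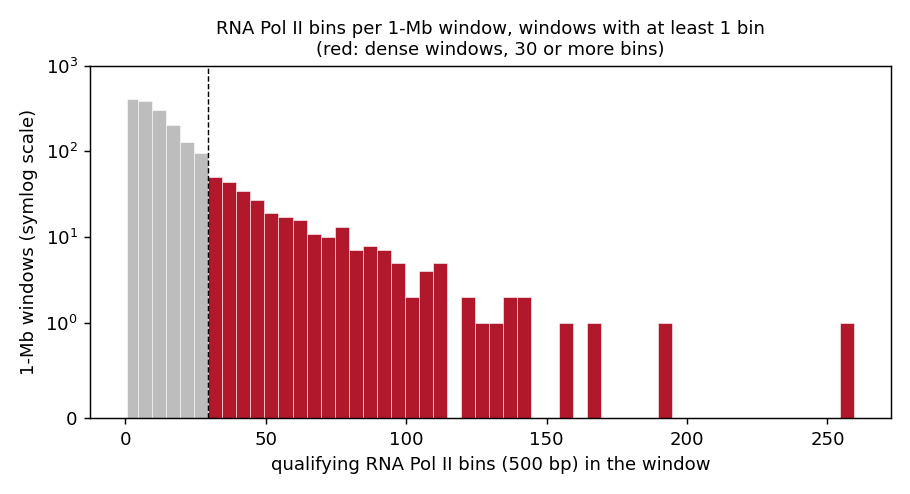
Number of 1-Mb windows (symlog scale) against the number of qualifying 500-bp RNA Pol II bins in the window, for windows with at least 1 bin, in classes of about 5 bins. Grey bars are sparser windows and red bars the 292 dense ones. There is no break at 30 bins, and the few windows with the most bins, up to 255, stand apart from one another.

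Chromosome 11 had 39 dense windows of 119, or 32.8%, the highest count and the highest share. Chromosomes 19 (13 of 59, 22.0%), 17 (20 of 93, 21.5%) and 7 (26 of 143, 18.2%) followed by share. Chromosome 13 had 3 of 118 (2.54%) and chromosome 1, the longest, had 7 of 195 (3.59%). Dense windows lay beside one another. Of the 292, 207 (70.9%) touched another dense window, 137 lay in 33 runs of at least 3, and 85 stood alone. The longest run covered 7 Mb of chromosome 15 from 96000001 to 103000000 (all positions are on build mm8), with 142 RNA Pol II sites. A run of 6 windows on chromosome 19 from 3000001 to 9000000 held 178 sites. At the other extreme, 35 dense windows directly adjoined a window with no qualifying bin.

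The window with the most RNA Pol II was chromosome 19 from 5000001 to 6000000, with 255 qualifying bins. It held 17364 RNA Pol II reads, 3413 E2F4 reads, 7721 H3K27me3 reads, 212 reads of WCE replicate 1 and 13095 of WCE replicate 2. Over its full length the RNA Pol II ratio to WCE was 4.88. Its 56 sites included the longest of all dense windows, a 28-kb site from 5822501 to 5850500. That site held 3655 RNA Pol II reads against 642 WCE reads, a ratio of 21.3 (19.6 to 23.2). E2F4 qualified in 1 of its bins by the same rule of 10 reads and a fold of 3, which 0.217% of all bins of the grid met, and its H3K27me3 ratio was 0.396 (0.337 to 0.464). In 5-kb steps, RNA Pol II reached ratios of 46.8 at 800 kb and 41.8 at 840 kb into the window. E2F4 was highest elsewhere, at 14.3 in the step at 365 kb and 13.8 at 960 kb, and H3K27me3 was highest at 10.2 in the step at 560 kb, where no bin qualified for RNA Pol II. The 3 signals therefore had their maxima at separate places of the same megabase.

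**Figure D2:**
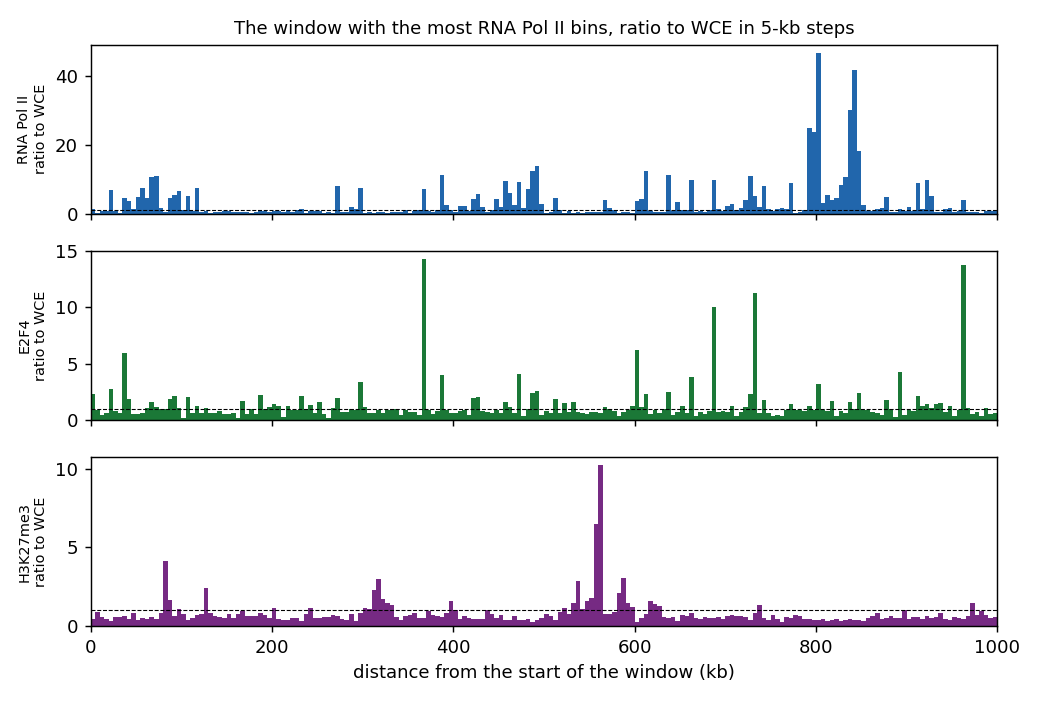
Ratio to WCE in 5-kb steps (pseudocount 1 read, libraries scaled by autosomal totals) along chromosome 19 from 5 to 6 Mb, for RNA Pol II, E2F4 and H3K27me3, each on its own vertical scale, with the dashed line at a ratio of 1. The highest RNA Pol II steps (46.8 and 41.8) lie between 800 and 850 kb, and the highest H3K27me3 step (10.2) lies at 560 kb in a stretch without RNA Pol II bins.

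The next 2 windows by count adjoined each other on chromosome 10. From 79000001 to 80000000 there were 190 qualifying bins in 58 sites, and from 80000001 to 81000000 there were 169 in 69, the most sites of any window. Neither depended on a single broad site, since their longest sites were 7 and 5 kb. Chromosome 11 from 69000001 to 70000000 followed with 155 bins in 42 sites. The others of the 10 with the most bins were on chromosomes 2 (from 30000001, 141 bins), 10 (from 127000001, 140), 7 (from 44000001, 137), 11 (from 120000001, 137) and 8 (from 87000001, 130, and from 73000001, 127). In these 10 windows the RNA Pol II ratio to WCE over the full megabase lay between 2.48 and 4.88. H3K27me3 separated them more: between RNA Pol II sites its ratio was 0.682 in the window on chromosome 2 and 2.34 in that on chromosome 7.

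Qualifying bins were joined into a site when no more than 1 bin lay between them. Dense windows held 6290 sites and sparser windows 7190. With WCE replicate 1 as the only background, qualifying bins numbered 21560 in place of 32934 and sites of dense windows 3532. Dense windows had 21.5 sites each against 4.70 in sparser windows, a factor of 4.58, and 2.67 qualifying bins per site against 2.25, a factor of 1.19. The density of a window thus lay mainly in the number of its sites and much less in their breadth. Only 4 of the 292 dense windows had over 50% of their site length in 1 site. The most extreme of these, chosen after its values were seen, was chromosome 2 from 117000001 to 118000000, where a 15-kb site made up 83.3% of the length of 4 sites.

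Single sites looked alike in both kinds of window. The median length was 1 kb in dense and in sparser windows, with the quartiles at 0.5 and 1.5 kb in both. The median number of RNA Pol II reads per site was 110 (quartiles 40 and 197) in dense and 100 (40 and 182) in sparser windows. The median fold over WCE was 10.97 (6.82 and 15.9) and 12.2 (7.48 and 17.7). The quartile ranges overlapped almost fully. Broad sites add to a window's bins, and a window with at most 29 bins has no room for the broadest, so the rule itself favours broad sites in dense windows. Sites of at least 3 kb numbered 457 (7.27%) in dense and 225 (3.13%) in sparser windows, and sites of at least 10 kb numbered 18 and 0. After the 28-kb site on chromosome 19, the longest lay on chromosome 11 from 94749001 to 94771500 (22.5 kb, RNA Pol II ratio 13.2, interval 12.01 to 14.4) and on chromosome 6 from 117134001 to 117149500 (15.5 kb, ratio 14.2, interval 12.4 to 16.3). Each of these 3 had exactly 1 bin that qualified for E2F4 and none for H3K27me3.

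RNA Pol II sites of dense windows were unevenly spaced. The median gap from the end of 1 site to the start of the next was 19.5 kb (18.5 to 20.5, n = 5998 gaps), with quartiles of 6.5 and 46.5 kb, and the mean was 38.2 kb. In windows with 20 to 29 bins the median gap was 43.5 kb (41.0 to 47.0), and in all sparser windows 60 kb (57.5 to 63.0). The median of the dense windows was 0.510 of their mean, and the standard deviation was 1.43 times the mean, against 0.565 and 1.23 in sparser windows. Evenly spaced sites would give a median equal to the mean. In 281 of the 292 dense windows the window's own median gap was below its mean gap. Randomly placed sites would also give medians below means, and the spacing was not compared with random placement.

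Short gaps were numerous and long gaps held most of the sequence. Of the gaps in dense windows, 19.7% (18.7 to 20.7) were under 5 kb and together held 1.24% of the gap length. Gaps of 5 to 20 kb made up 30.4% and those of 20 to 50 kb 26.5%. Only 9.35% (8.63 to 10.1), or 561 gaps, were at least 100 kb long, and these held 41.99% of the gap length, 96.2 Mb. In sparser windows 8.62% of gaps were under 5 kb and 34.3% at least 100 kb. Sites within 10 kb of each other were also linked into clusters. Dense windows had 86 clusters of 5 or more sites with 549 sites, 8.73% of their sites, whereas sparser windows had 5 such clusters with 25 sites. The largest cluster had 19 sites in 83 kb.

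**Figure D3:**
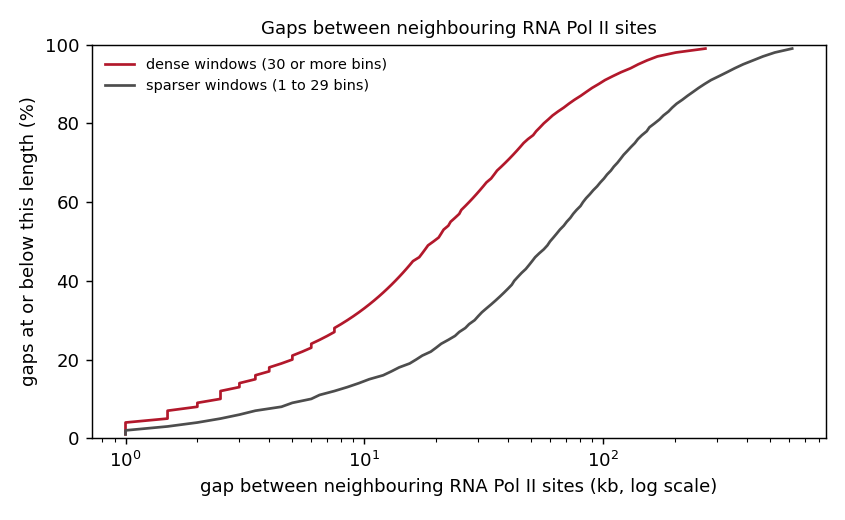
Share of gaps (percent) at or below a given length (kb, log scale) between neighbouring RNA Pol II sites of the same window, in dense (red) and sparser (grey) windows. The curves cross 50% at 19.5 kb in dense and 60 kb in sparser windows.

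Even dense windows contained long stretches without RNA Pol II. The longest run of sequence without a qualifying bin, stretches at the window's ends included, had a median of 219 kb over the 292 windows and ranged from 52.5 to 802.5 kb. It was at least 100 kb in 283 windows and at least 200 kb in 169. The longest gap between 2 sites of a dense window was 660 kb on chromosome 15 from 101144501 to 101804500. There RNA Pol II stood at 0.279 of WCE (0.249 to 0.311), no bin qualified for E2F4, and 97 bins qualified for H3K27me3, as 1.39% of all bins of the grid did, at a ratio of 1.81 (1.74 to 1.88) over the whole gap.

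With more RNA Pol II bins the spacing was tighter. Windows with 30 to 49 bins had 15.4 sites each and a median gap of 30 kb, those with 50 to 99 bins had 25.9 sites and 17 kb, and those with at least 100 had 41.5 sites and 11 kb. Bins per site were 2.47, 2.67 and 3.16 in the same order. The rule fixes the direction of these values.

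E2F4 was not used to choose the windows. A site was said to carry E2F4 when at least 1 of its bins held at least 10 E2F4 reads at a fold of at least 3 over the same WCE. Of the 6290 sites in dense windows 3084 carried E2F4, 49.03% (47.8 to 50.3), and of the 7190 in sparser windows 3586 did, 49.9% (48.7 to 51.0). The difference, dense minus sparser, was -0.84 percentage points, with an interval of -2.53 to 0.85 over sites, so no difference was detectable. Against the 2308 sites of windows with 20 to 29 bins, of which 47.4% carried E2F4, it was 1.67 points (-0.71 to 4.05). Among windows with at least 10 sites, the median share per window was 50.0% in 283 dense and 45.5% in 161 sparser windows, with quartiles of 40.8 and 58.7% and of 36.4 and 54.5%. Over all windows 49.5% of sites carried E2F4. E2F4 bins themselves were 16.3 per Mb in dense and 3.70 per Mb in sparser windows, and 0.217% of all 500-bp bins of the grid qualified. Dense windows thus held more E2F4 bins per Mb while the pooled shares of RNA Pol II sites with E2F4 were 49.03% and 49.9%.

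This comparison depended on how bins are joined. When bins up to 5 kb apart were merged, a setting chosen after the data were seen, 56.7% of the sites of dense windows carried E2F4 and the difference became 3.83 points (2.01 to 5.65). When only touching bins were joined, it was -2.53 points (-4.16 to -0.90). Against WCE replicate 1 alone, the background from the same run as both antibodies, it was 2.09 points (0.09 to 4.08). Intervals also missed 0 with a fold of 5 (-1.93 points), with a minimum of 20 bins (-2.48) and with repeated reads kept (-1.98). In the settings run, the difference over all sites lay between -2.53 and 3.83 points.

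The share of sites with E2F4 depended strongly on RNA Pol II reads. In dense windows it was 7.92% (6.52 to 9.52) for sites with 10 to 30 RNA Pol II reads, 31.7% for 31 to 78, 55.2% for 79 to 135, 67.7% for 136 to 212 and 81.0% (78.8 to 83.1) for 213 or more. Sparser windows gave 10.3%, 35.7%, 55.5%, 70.8% and 80.2% in the same 5 classes. The classes of 10 to 30 and of 31 to 78 reads had differences of -2.42 points (-4.57 to -0.26) and -3.95 points (-7.52 to -0.33), and the intervals of the other 3 reached 0. Weighted to the same mix of classes, the shares were 48.5% in dense and 50.3% in sparser windows, a difference of -1.79 points.

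**Figure D4:**
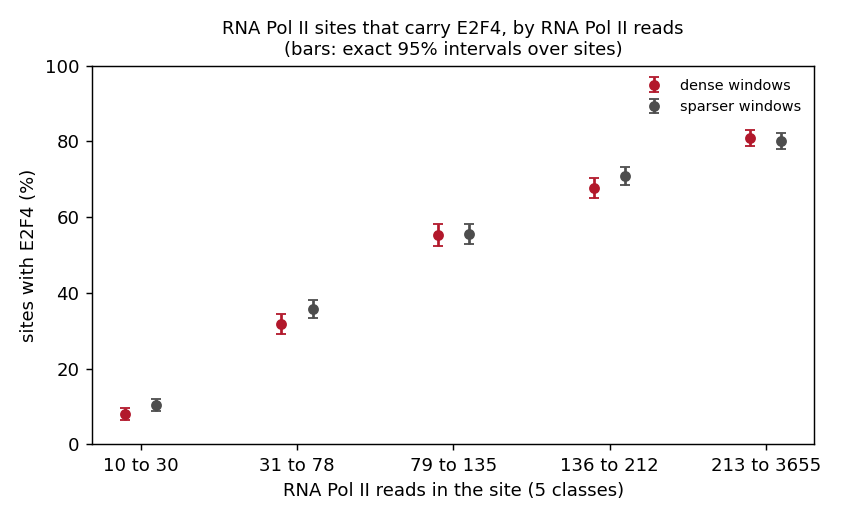
Percent of RNA Pol II sites with at least 1 E2F4 bin in 5 classes of RNA Pol II reads per site, for dense (red) and sparser (grey) windows, with exact 95% intervals over sites. The shares go from 7.92% to 81.0% in dense windows, and the 2 kinds of window lie within 4 percentage points of each other in every class.

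The share of sites with E2F4 was lower among sites with a close neighbour. In dense windows 39.99% (37.8 to 42.2) of the 2003 sites whose nearest neighbour was under 5 kb away carried E2F4, against 51.7% (49.7 to 53.8) at 5 to 20 kb and 55.1% (52.8 to 57.3) at 20 kb or more. The median RNA Pol II reads of these sites were 89, 112 and 125. Within classes of RNA Pol II reads the shares under 5 kb and at 20 kb or more were 5.32% and 11.9% (10 to 30 reads), 20.5% and 39.3% (31 to 78), 45.5% and 58.9% (79 to 135), 65.7% and 65.6% (136 to 212), and 78.3% and 84.2% (213 or more). The intervals did not overlap in the first 3 classes. Sparser windows showed a similar order, with 34.6% under 5 kb and 53.1% at 20 kb or more. Whether close sites are parts of 1 transcribed unit was not tested, since no gene annotation of the reads' build was used. Of sites whose nearest neighbour carried E2F4, 50.3% (48.5 to 52.2) carried it too, and of sites whose nearest neighbour did not, 47.9% (46.2 to 49.6), with intervals that overlapped.

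Longer sites had a higher share with E2F4 but mostly few E2F4 bins. In dense windows 19.7% of the 500-bp sites had E2F4, 56.0% of those of 1 kb, 63.2% of those of 1.5 to 2.5 kb and 67.6% (63.1 to 71.9) of those of at least 3 kb. In sparser windows the shares were 25.3%, 55.4%, 67.0% and 67.1%. The difference, dense minus sparser, was -5.55 points (-8.13 to -2.93) at 500 bp and -3.81 points (-6.72 to -0.89) at 1.5 to 2.5 kb, and the intervals of the other lengths reached 0. Of the 309 sites of at least 3 kb with E2F4, 52.4% had it in a single 500-bp bin, and the highest number of E2F4 bins was 6. The bin with the most E2F4 reads was also the bin with the most RNA Pol II reads in 71.0% (69.2 to 72.8) of sites of 1 to 2.5 kb and in 52.8% (47.0 to 58.4) of sites of at least 3 kb. E2F4 was thus narrow also where RNA Pol II was broad.

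E2F4 bins seldom lay away from RNA Pol II. Of the 4772 E2F4 bins in dense windows, 4347 were within an RNA Pol II site, 91.1% (90.3 to 91.9), and 221 (4.63%) were more than 1 kb from any qualifying RNA Pol II bin. In sparser windows 86.2% (85.3 to 87.1) were within a site. RNA Pol II bins were 2.88% of all bins in dense and 0.530% in sparser windows. Both calls used the same WCE, which links them. Sites cover more of a dense window, and the part of this in the difference was not tested. Summed over dense windows, the E2F4 ratio to WCE was 6.22 (6.18 to 6.26) at sites with E2F4 and 1.497 (1.48 to 1.52) at those without it. The definition of these sites fixes that order. In the sequence more than 1 kb from RNA Pol II bins the ratio was 0.649 (0.646 to 0.652). At sites with E2F4 the ratio in sparser windows was 7.88 (7.83 to 7.93), higher than in dense windows, while the median number of E2F4 reads at such sites was 36 in dense and 33 in sparser windows. The sites had a median length of 1.5 kb in dense and 1 kb in sparser windows, and the part of this length in the ratio was not tested.

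Single dense windows varied widely around the common share. Over the 292 windows the median share of sites with E2F4 was 50.0% (quartiles 40.6 and 58.8), and 291 windows had at least 1 site with E2F4. The exception was chromosome 9 from 41000001 to 42000000, where 0 of 18 sites carried E2F4 (0%, 0 to 18.5). That window held 1078 E2F4 reads against 2621 RNA Pol II reads, and its longest site was 12 kb. Its median gap was 28.5 kb, with 4 gaps under 5 kb, where the median gap of dense windows had a median of 22.5 kb. The next lowest were both on chromosome 6. From 36000001 to 37000000, 2 of 29 sites carried E2F4, 6.90% (0.85 to 22.8), and from 4000001 to 5000000, 2 of 20 did, 10.0% (1.24 to 31.7). Unlike the window on chromosome 9, these 2 windows had short median gaps of 2 and 1.5 kb, with 19 and 13 gaps under 5 kb. Their longest stretches without a qualifying bin were 642.5 and 331.5 kb, the second of them a gap between 2 sites. Highest were chromosome 8 from 11000001 to 12000000, with 7 of 8 sites (87.5%, 47.3 to 99.7), chromosome 8 from 75000001 to 76000000, with 11 of 13 (84.6%), and chromosome 5 from 33000001 to 34000000, with 10 of 12 (83.3%). Chromosome 12 from 8000001 to 9000000 tied with the last, also at 10 of 12. The median gaps of these 4 windows were 75.5, 25.8, 41.5 and 31.5 kb. The direction against sparser windows also varied by chromosome, with a lower share in dense windows on 12 of 19 and a higher one on 7.

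Between RNA Pol II sites, dense windows carried more H3K27me3 than sparser ones. In sequence more than 1 kb from any qualifying RNA Pol II bin, the H3K27me3 ratio to WCE was 1.20 (1.197 to 1.202) in dense windows, from 2087754 H3K27me3 and 2136803 WCE reads over 271 Mb. This level rested on the background: it was 1.19 against WCE replicate 2 alone, 1.85 against WCE replicate 1 alone, and 1.48 with libraries scaled on bins far from any signal. In sparser windows it was 1.02 (1.02 to 1.03) and in windows without RNA Pol II 0.768 (0.766 to 0.770). The ratio of dense to sparser windows, in which the library scaling cancels for a given set of windows, was 1.17 (1.168 to 1.173). It was above 1 on each of the 19 autosomes. The interval covers read counting only. Over single windows, the median ratio was 1.10 (quartiles 0.894 and 1.37) in the 292 dense and 0.917 (0.792 and 1.10) in the 1529 sparser windows, so the ranges overlapped broadly. Between sites 191 of the 292 dense windows had an H3K27me3 ratio above 1 by library totals, a count that depends on the background and scaling. In sparser windows the median of 0.917 lay below 1 and the upper quartile of 1.10 above it.

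The difference lay far from the sites. In the qualifying RNA Pol II bins themselves the H3K27me3 ratio was 0.487 in dense and 0.497 in sparser windows. In dense windows these bins held 12.15 H3K27me3 and 30.6 WCE reads per kb, against 6.63 and 9.57 at 1 to 5 kb. The low ratio in these bins thus went with dense WCE reads and not with few H3K27me3 reads. Under 1 kb from the bins the H3K27me3 ratio was lower in dense windows, 0.759 against 0.798, a ratio of 0.951 (0.941 to 0.961). At 1 to 5 kb it was 0.851 (0.847 to 0.855) and 0.852 (0.848 to 0.856), a ratio of 0.998 (0.991 to 1.00), so no difference in this ratio was detectable, while 2.00% and 1.17% of bins there qualified for H3K27me3 with at least 10 reads and a fold of at least 3. At 5 to 20 kb it was 0.995 against 0.886, at 20 to 50 kb 1.31 against 0.998, and at 50 to 100 kb 1.74 (1.73 to 1.75) against 1.15 (1.15 to 1.15). The ratio of dense to sparser windows at these distances was thus 1.12, 1.31 and 1.51 (1.51 to 1.52), and at 100 kb or more it was 1.59 (1.58 to 1.60). At 50 to 100 kb dense windows were higher on all 19 autosomes, from 1.08 times on chromosome 14 to 1.93 times on chromosome 15.

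The libraries behind this ratio were also compared one by one. At 50 to 100 kb from RNA Pol II, H3K27me3 reads were 1.89 times as dense in dense as in sparser windows, with 9.95 and 5.27 reads per kb. WCE replicate 2, from the same run, was 1.26 times as dense (6.86 and 5.45 reads per kb) and WCE replicate 1 was 0.942 times as dense. The excess of H3K27me3 was therefore larger than that of either extract library. Against WCE replicate 2 alone, the extract of the same run, the ratio of dense to sparser windows over all sequence between sites was 1.16 (1.16 to 1.16). Against WCE replicate 1 alone, from the other run, it was 1.63 (1.60 to 1.65).

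**Figure D5:**
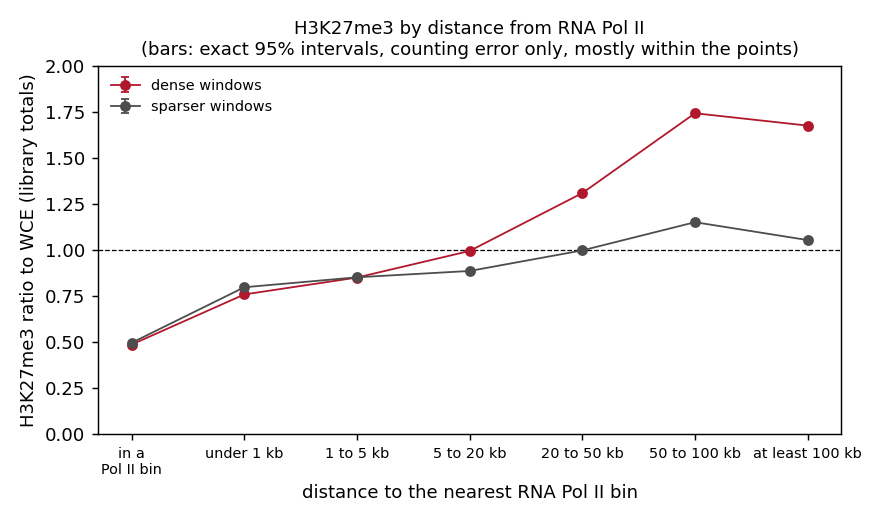
H3K27me3 ratio to WCE (scaled by autosomal totals) in 7 classes of distance to the nearest qualifying RNA Pol II bin, for dense (red) and sparser (grey) windows, with exact 95% intervals that cover counting error only. The 2 curves lie close together up to 5 kb (dense windows slightly lower under 1 kb) and separate beyond, reaching 1.74 in dense and 1.15 in sparser windows at 50 to 100 kb.

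The same was seen in 500-bp bins that qualified for H3K27me3 with at least 10 reads and a fold of at least 3. Over the grid 1.39% of bins did. Between sites, more than 1 kb from RNA Pol II, 4.79% of bins in dense windows qualified, 25964 in number, against 1.28% in sparser windows, 3.75 times as high a share. How many bins qualified depended on the background. Against WCE replicate 1 alone, 1562 bins qualified over the grid in place of 67098, since that library is so shallow that a bin without WCE reads then needed 68 H3K27me3 reads, and 31953 qualified at a fold of 5. The shares between sites were then 0.147% against 0.0322% and 2.51% against 0.655%, which are 4.58 and 3.83 times as high in dense windows. In 5 alternative settings, added after the data were seen, the factor ranged from 3.35 to 4.58. A bin reaches 10 reads more easily where reads are denser, and WCE replicate 2 was 1.61 times as dense in this sequence of dense windows. Its part in the share of bins was not tested. Joined across at most 1 bin, qualifying bins formed 9248 stretches in dense windows, 31.7 per Mb, with a median length of 0.5 kb. Of these, 195 were at least 10 kb long, 66.8 per 100 Mb, against 205 or 13.4 per 100 Mb in sparser windows. At a fold of 5 there were 4734 stretches in dense windows, 35 of them at least 10 kb long, and against WCE replicate 1 alone 226 and 0.

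The H3K27me3 ratio followed the length of the gap. In dense windows the ratio over whole gaps was 0.678 (0.667 to 0.690) for gaps under 5 kb, 0.780 at 5 to 20 kb, 0.880 at 20 to 50 kb, 1.06 at 50 to 100 kb and 1.47 (1.47 to 1.48) at 100 kb or more. WCE reads were densest near RNA Pol II, and their part in these ratios was not tested. The share of gaps with at least 1 H3K27me3 bin was 2.88%, 10.0%, 23.1%, 42.3% and 67.2% (63.1 to 71.1), though longer gaps have more bins in which one can qualify. Sparser windows showed the same order, with ratios of 0.682 (0.664 to 0.701), 0.7605, 0.795, 0.875 and 1.11 (1.11 to 1.11) in these 5 classes. The intervals of the 2 kinds of window overlapped for gaps under 5 kb. Shares of gaps with at least 1 H3K27me3 bin were 2.25%, 6.94%, 14.9%, 27.1% and 55.6% in sparser windows. Gaps of which at least 25% of the bins qualified made up 8.20% (46 of 561) of the gaps of at least 100 kb in dense windows and 1.55% (30 of 1940) in sparser ones.

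The longest H3K27me3 stretch in a dense window ran for 62.5 kb on chromosome 8 from 125586001 to 125648500, with 2688 H3K27me3 reads against 597 WCE reads, a ratio of 5.53 (5.06 to 6.05). Only 21 RNA Pol II reads fell in it, and the nearest qualifying RNA Pol II bin was 13 kb away. The next were 54.5 kb on chromosome 11 from 97344001 to 97398500, at 9.21 (8.44 to 10.1), and 46.5 kb on the same chromosome from 95979001 to 96025500, at 10.3 (9.27 to 11.4). RNA Pol II bins began 47 and 73.5 kb away from these. Of the 9248 stretches 117 (1.27%) held a qualifying RNA Pol II bin, and for the others the median distance to the nearest one was 36.5 kb. RNA Pol II bins were 2.88% of all bins in dense windows, but a stretch can span many bins, so the 2 shares are unlike measures. In sparser windows 163 of 17653 stretches (0.923%) held an RNA Pol II bin, and 0.530% of bins were RNA Pol II bins. WCE was denser in RNA Pol II bins, so an H3K27me3 call took more reads there. The part of this in the 1.27% was not tested.

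H3K27me3 bins also fell within RNA Pol II sites. In dense windows 122 of 6290 sites, 1.94% (1.61 to 2.31), had a bin that qualified for H3K27me3, and in sparser windows 141 of 7190, 1.961% (1.65 to 2.31). By bins, 1.13% of the RNA Pol II bins of dense windows qualified for H3K27me3 against 4.57% of all their bins, whereas in sparser windows the shares were 1.32% and 1.29%, both near the 1.39% of the grid. WCE reads per kb in dense windows were 30.6 in RNA Pol II bins and 7.885 at over 1 kb from them. A fold of 3 thus took more H3K27me3 reads in an RNA Pol II bin. The part of this in the shares was not tested. These 122 sites had a median of 40.5 RNA Pol II reads, below the 110 of all sites in dense windows, and 27 of them (22.1%) carried E2F4. H3K27me3 ratios at sites with E2F4 and without it were 0.434 (0.430 to 0.438) and 0.588 (0.581 to 0.595) in dense windows. The 3084 sites with E2F4 held 59397 H3K27me3 and 167987 WCE reads, the 3206 without it 45205 and 94393. Their median lengths were 1.5 and 1 kb. Median H3K27me3 reads per site were 15 and 10. These sums and medians are not per kb, and the parts of site length and WCE reads in the lower ratio were not tested.

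The number of H3K27me3 bins between sites varied among dense windows, from 0 to 411 with a median of 62 (quartiles 26 and 127.5). The 99 windows with at least 100 H3K27me3 bins between sites held 70.8% of all such bins in dense windows, and 3 windows had none. Choosing windows by this count itself favours a high share. These counts followed the background as well: 28 windows reached 100 bins at a fold of 5, holding 40.9%, and against WCE replicate 1 alone none did. The ratio between sites was highest in adjoining windows of chromosome 19, at 2.81 (2.73 to 2.89) from 44000001 to 45000000 and 2.47 (2.40 to 2.55) from 45000001 to 46000000. Next was chromosome 1 from 74000001 to 75000000, at 2.46 (2.39 to 2.53). The first of these held 15500 H3K27me3 reads, 3468 RNA Pol II reads, 1396 E2F4 reads, 181 reads of WCE replicate 1 and 7530 of WCE replicate 2. Of its bins between sites 21.9% qualified for H3K27me3, while 10 of its 17 RNA Pol II sites carried E2F4. Lowest were chromosome 5 from 124000001 to 125000000, at 0.610 (0.587 to 0.634), chromosome 18 from 60000001 to 61000000, at 0.625 (0.595 to 0.657), and chromosome 3 from 95000001 to 96000000, at 0.652 (0.626 to 0.680). The last of these held 34 RNA Pol II sites, 17 of them with E2F4, and 1 H3K27me3 bin between sites.

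More RNA Pol II did not mean less H3K27me3 between the sites. The ratio summed over windows was 1.17 (1.17 to 1.18) for those with 30 to 49 qualifying RNA Pol II bins, 1.22 (1.22 to 1.22) for 50 to 99 and 1.27 (1.26 to 1.28) for at least 100. The medians over single windows were 1.06, 1.17 and 1.27. E2F4 shares of sites in the same 3 classes were 50.3% (48.2 to 52.3), 48.1% (46.2 to 49.9) and 48.9% (45.7 to 52.1), with intervals that overlapped.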

How the data were processed

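The deposited lists hold the signed position of each aligned read. Per the file headers, the authors used bowtie against mm8 (-e 70, -k 2, -m 2, -n 2), with -l 26 in the run of RNA Pol II and E2F4 and -l 36 in that of H3K27me3. No bowtie version is given in these sources. Reads with 1 placement were kept once per position and strand. Positions were read as leftmost bases, read length as the -l value, and 5′ ends were moved 60 bp downstream. Reads were counted in 500-bp bins. The fold was ((k+1)/K)/((w+1)/W), with k antibody reads, w reads of both WCE libraries, and K and W their autosomal totals. A site belongs to the window in which it starts, and gaps join sites of 1 window.

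Shares have exact Clopper-Pearson intervals, differences of shares Newcombe intervals and ratios to WCE exact conditional intervals. The ratio of dense to sparser windows has a normal interval on the log scale in place of the exact one planned, because of the size of the counts. Medians of gaps have order-statistic intervals. No p-value is given, since there is 1 library per antibody. The selection was tested on simulated data with planted windows. Named are the 10 windows with the most RNA Pol II bins, the 3 highest and 3 lowest in E2F4 share and in H3K27me3 ratio, the longest sites, gaps and run, and others said to be chosen later. The windows and comparisons were chosen with earlier results of these data known. Genes and sequences are not analysed here, because mm8 differs from the reference table's assembly, GRCm38.p6. Python 3.11.15, numpy 2.4.6, scipy 1.17.1 and pandas 2.3.3 were used.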

Additional observations from a re-analysis of the deposited data

Results flagged for a closer look

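Reads listed at 2 places entered none of the comparisons above, yet they carried RNA Pol II signal over WCE in dense windows. By the same rule, 860 bins of dense windows qualified from these reads, and 261 of them lay outside the bins found with reads of 1 placement. Such bins were not particular to dense windows. In sparser windows 1431 qualified, 772 of them outside, and in the windows empty by reads of 1 placement 136 did. Dense, sparser and empty windows covered 291.9, 1524 and 589.6 Mb. Over dense windows the RNA Pol II ratio to WCE of these reads was 1.58 (1.57 to 1.59), against 0.961 (0.956 to 0.967) in sparser windows. The E2F4 ratio was 0.958 in dense and 0.996 in sparser windows, and the H3K27me3 ratio 1.34 and 0.994. Each of these reads was counted at its 2 listed positions, and which of them it came from is unknown.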

How the results depend on the processing

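No paired analysis was possible because each antibody has 1 library and the labels give no shared replicate numbers. Of 68 recomputed values 38 stayed within the interval of the reported value (or within 1.5 times the number of windows). The E2F4 difference changed sign in 3 settings: without WCE replicate 2, with joining across 5 kb, and, at 0.06 points, with windows starting from 3.5 Mb. The other results kept their direction. Leaving out WCE replicate 1 or 2 gave 289 and 157 dense windows, median gaps of 19.5 and 21 kb, E2F4 shares of 48.5 and 49.7%, E2F4 differences of -0.61 and 2.09 points, H3K27me3 ratios of 1.19 and 1.85 in dense windows, and dense-over-sparser H3K27me3 ratios of 1.16 and 1.63. With WCE replicate 1 alone a bin without WCE reads needs more antibody reads to reach the fold. A minimum of 20 bins gave 515 windows, a gap of 23.5 kb and H3K27me3 ratios of 1.16 and 1.15 (here and below, in dense windows and dense over sparser). A minimum of 40 gave a gap of 17 kb and an H3K27me3 ratio of 1.21 in dense windows. A fold of 5 gave an E2F4 share of 37.7% and H3K27me3 ratios of 1.20 and 1.17. Scaling on background bins gave 1.48 and 1.17, a shift of 75 bp 1.20 and 1.17, and more than 5 kb from RNA Pol II 1.27 and 1.23. Keeping all reads gave an E2F4 share of 50.6%. Joining touching bins only gave a gap of 16.5 kb and an E2F4 share of 45.3%. Chosen after the data were seen, joining across 5 kb gave a gap of 28 kb, an E2F4 share of 56.7% and a difference of 3.83 points, and leaving out chromosome 11 gave H3K27me3 ratios of 1.19 and 1.17. Depth limits E2F4 most, since 10 reads were required of the shallowest antibody library, and a site without a call may hold E2F4 below that level.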
